A study of Mus musculus with 12 samples.

Results

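The 6 genes described here, Irgm1, Irgm2, Igtp, Tgtp1, Tgtp2 and Iigp1, encode immunity-related GTPases (IRG proteins), and their RNA was followed in mouse B cells from spleen, from animals labelled WT (wild-type) or KO (Chd4 knockout). They are 6 of the 32699 gene symbols in the count table and take up 16 of its 63759 transcripts, and all 6 were among the 19125 genes with enough reads to be tested. The family was chosen by a measured value: Iigp1 was lower in KO than in WT libraries at both times. The KO against WT values of Iigp1 are therefore given as a description without a test. The other 5 genes belong to the family by name.

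The study compared WT and KO B cells purified from spleen, either unstimulated (0 hr) or cultured for 48 hr with 10 µg/ml lipopolysaccharide (LPS) and 25 ng/ml interleukin 4 (IL-4). LPS is a bacterial cell wall component that activates B cells, IL-4 is a cytokine that directs antibody class switching, and CHD4 is the chromatin-remodelling ATPase of the NuRD complex. There were 12 libraries, 3 per group, numbered 1 to 3 for WT 0 hr, 4 to 6 for KO 0 hr, 7 to 9 for WT 48 hr and 10 to 12 for KO 48 hr. The strain, the age of the mice, the deleted part of Chd4, the way it was deleted and whether replicates came from separate animals are not given in the sources used here. The p-values therefore reflect the spread among these libraries, which may be technical.

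IRG proteins are made in response to interferons, above all interferon gamma, and defend single cells against bacteria and parasites that live inside membrane vacuoles. Effectors of the GKS class, named for a motif in their nucleotide-binding site, are Iigp1 (the protein Irga6), Tgtp1 and Tgtp2 (both Irgb6). They gather on the vacuole of invaders such as Toxoplasma gondii and help to break it open. The GMS class, Irgm1, Irgm2 and Igtp (also called Irgm3), sits on the membranes of the cell itself and holds the effectors inactive there. Interferon gamma acts through its receptor and the kinases JAK1 and JAK2, and its target genes carry palindromic sites in their promoters. It also raises IRF1, a factor that binds repeats of GAAA.

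In the mm10 genome with the GENCODE M21 annotation, 5 of the genes lie on chromosome 11 in 2 clusters. Irgm1 (48861968 to 48871683, minus strand), Tgtp1 (48985327 to 48994172, minus strand) and Tgtp2 (49057194 to 49064206, minus strand) form 1 cluster, with gaps of 114 kb and 63 kb. Igtp (58199556 to 58207591, plus strand) and Irgm2 (58199618 to 58222782, plus strand) overlap, because the longest annotated Irgm2 transcript starts at 58199618 inside Igtp. Promoter windows of 300 bases were found for the 5 genes of chromosome 11 and none was found for Iigp1.

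The promoters are shown as a description beside the changes over time given below, where 4 of the 6 genes rose in both genotypes. For each gene the 60 bases around its matches to the interferon-related motifs are printed 5′ to 3′ on the strand of the gene, from RefSeq on GRCm38.p6, in lower case with the matches in capitals. The motifs searched on both strands were GAAANNGAAA, the repeat that IRF factors bind, and TTCNNNGAA, the palindrome of interferon gamma-activated sites, and matches to the 2 motifs did not overlap each other.
Irgm1 (chr11:48871421-48871480, minus strand): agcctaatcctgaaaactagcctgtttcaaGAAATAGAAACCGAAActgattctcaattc
Irgm2 (chr11:58214878-58214937, plus strand): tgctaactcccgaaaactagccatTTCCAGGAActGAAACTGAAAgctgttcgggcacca
Igtp (chr11:58199487-58199546, plus strand): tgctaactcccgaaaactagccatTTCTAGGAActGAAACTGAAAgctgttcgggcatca
Tgtp1 (chr11:48992299-48992358, minus strand): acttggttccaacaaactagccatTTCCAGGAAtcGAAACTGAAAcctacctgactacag
Tgtp2 (chr11:49064258-49064317, minus strand): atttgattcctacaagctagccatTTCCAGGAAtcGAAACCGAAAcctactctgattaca

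GAAANNGAAA was present in all 5 windows, against 3.44% of 32851 promoter windows of the same length genome-wide. TTCNNNGAA was present in 4 of them, against 8.3% genome-wide, and both motifs together in the same 4, against 0.454%. Irgm1 was the exception: its window held 2 overlapping GAAANNGAAA matches, at -30 to -21 and -24 to -15 from the annotated start, and no TTCNNNGAA. In the other 4 the palindrome stood just upstream of the repeat, and the repeat ran from -77 to -68 in Tgtp1, -70 to -61 in Tgtp2, -64 to -55 in Irgm2 and -34 to -25 in Igtp. Each window spans the RefSeq start of its gene, and most of it lies upstream. That of Irgm2 (58214727 to 58215026) holds the start of 1 shorter GENCODE transcript, at 58215008, ends just before that of another, at 58215028, and lies far from the start of the longest one. A match is a description of the letters and not of a bound site. The windows of Irgm2 and Igtp, and those of Tgtp1 and Tgtp2, closely resemble each other, so the 5 are not independent of one another. Irgm2, which held both motifs, did not pass the edgeR test over time in either genotype in the main analysis, as described below. A link between the motifs and the changes over time was not tested.

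Tgtp1 and Tgtp2 are near-identical copies. Their longest annotated coding transcripts were identical at 99.8% of aligned bases (2804 of 2810), and 89.4% of the 50-base words of Tgtp1 also occur in Tgtp2. Reads were 50 bases long, so the split of reads between the copies is uncertain and the sum of both is given beside them. Irgm2 and Igtp were identical at 80.6% of aligned bases and shared 6.29% of the 50-base words of Irgm2, while the other pairs had 61.6% to 71.5% identity and shared no such word. Tgtp1 also overlaps the annotated gene Gm12185, so those reads could be divided as well.

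Libraries held 39 M to 53.2 M estimated counts (median 51.1 M). Levels are given as CPM, counts relative to library size after TMM scaling (trimmed mean of M values). Chd4 itself did not separate the labels at 0 hr (68.1 to 99.4 CPM in WT, 70.6 to 100 CPM in libraries labelled KO), and at 48 hr it stood at 96.1 to 123 CPM in WT and 38.8 to 74.7 CPM in libraries labelled KO. On the second principal component (5.03% of the variance) 2 libraries labelled KO, replicate 6 at 0 hr (4.02) and replicate 12 at 48 hr (3.09), stood between WT, at 12.5 to 23.0, and the remaining KO libraries, at -40.2 to -19.5. Sex-linked RNA also separated the genotypes: Xist was at 75.4 to 293 CPM in WT and 0.856 to 1.59 CPM in KO libraries, and the Y-linked Ddx3y at 20.8 to 28.3 CPM in WT and 91.8 to 139 CPM in KO. An effect of sex and an effect of genotype cannot be told apart here. The markers of B cells summed to 5408 to 9428 CPM over the 12 libraries and none was at 0. In bulk RNA, fewer cells of a type and less RNA per cell cannot be told apart.

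Per kilobase of its longest coding transcript, Irgm1 was the most abundant of the 6 and Iigp1 the least abundant in all 4 groups. In WT 0 hr libraries Irgm1 stood at 46.2 ± 8.06 CPM per kb (SD, n = 3 here and below), Igtp at 25.7 ± 5.39, Tgtp1 at 22.2 ± 3.13, Tgtp2 at 18.2 ± 3.99, Irgm2 at 7.03 ± 0.564 and Iigp1 at 1.75 ± 0.261. The libraries of Igtp (21.6 to 31.8 CPM per kb), Tgtp1 (20.3 to 25.8) and Tgtp2 (14.8 to 22.6) overlapped from one to the next, so their order is within the spread. In KO 0 hr libraries the levels were 37.2 ± 3.61 for Irgm1, 18.0 ± 2.15 for Igtp, 8.38 ± 2.16 for Tgtp1, 6.05 ± 0.882 for Tgtp2, 4.88 ± 0.432 for Irgm2 and 0.334 ± 0.0530 for Iigp1. Tgtp1 (6.08 to 10.4), Tgtp2 (5.34 to 7.04) and Irgm2 (4.62 to 5.38) again overlapped from one to the next.

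After 48 hr the WT levels per kilobase were 143 ± 3.06 for Irgm1, 62.7 ± 2.21 for Igtp, 57.2 ± 1.97 for Tgtp1, 31.0 ± 1.92 for Tgtp2, 5.88 ± 0.484 for Irgm2 and 2.82 ± 0.319 for Iigp1. In KO 48 hr libraries they were, with the range in place of the mean for Tgtp2, 163 ± 17.2, 49.6 ± 4.16, 37.9 ± 4.19, 18.8 to 23.3, 5.79 ± 0.277 and 0.407 ± 0.0578, in the same order of genes. At 48 hr the libraries of neighbouring genes in this order did not overlap in either genotype.

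**Figure D1:**
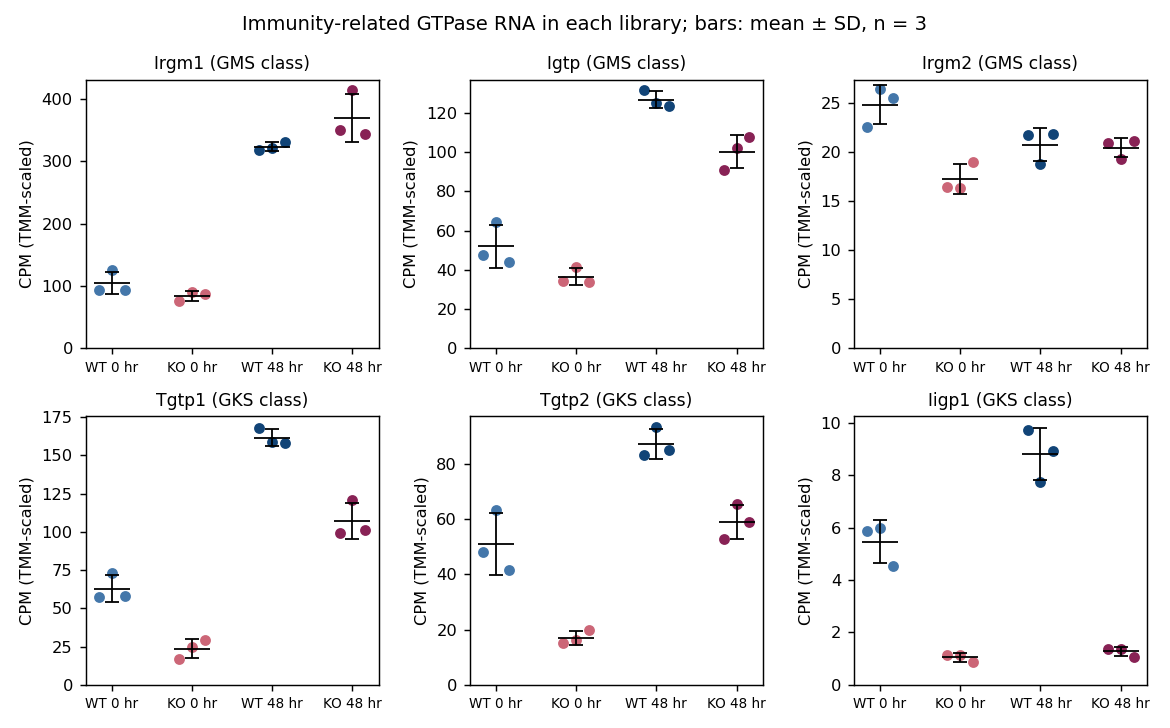
Level of each of the 6 genes in each of the 12 libraries, in TMM-scaled CPM on a linear axis from 0, with 1 point per library and bars for the mean ± SD of each group (n = 3). Irgm1, Igtp, Tgtp1 and Tgtp2 stand higher at 48 hr in both genotypes, Irgm2 stays between 16.3 and 26.4 CPM, and all 6 KO libraries of Iigp1 lie below all 6 WT libraries.

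The first comparison, 48 hr with LPS and IL-4 against 0 hr, asks how the family changed on activation, and the choice of the family did not use it. In WT cells 5 of the 6 genes rose (33% of the 19125 tested genes were called higher and 40.9% lower), namely Irgm1, Igtp, Tgtp1, Tgtp2 and Iigp1. In KO cells 4 of the 6 rose (33% of genes called higher, 37.7% lower), namely Irgm1, Igtp, Tgtp1 and Tgtp2. The median log2 fold change of the 6 genes was 1.03 in WT, against -0.39 over all tested genes, and 1.63 in KO, against -0.30. A gene was called when edgeR's quasi-likelihood test gave it a p-value below 0.05 after Benjamini-Hochberg adjustment over the 19125 genes.

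Among the GMS class, Irgm1 changed most. It stood at 93.8, 125 and 93.9 CPM in WT 0 hr replicates 1 to 3 (104 ± 18.2) and at 318, 321 and 331 CPM in WT 48 hr replicates 7 to 9 (323 ± 6.91). In KO libraries it stood at 75.0, 90.8 and 86.4 CPM before stimulation (84.0 ± 8.17) and at 349.9, 414 and 344 CPM after it (369 ± 38.8). All stimulated libraries were above all unstimulated ones in both genotypes. Irgm1 rose by a log2 fold change of 1.63 in WT (SE 0.13, edgeR adjusted p = 8.04e-08) and of 2.13 in KO (SE 0.13, edgeR adjusted p = 6.44e-09).

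Igtp followed the same course at a lower level. Its WT libraries had 47.7, 64.3 and 43.8 CPM before stimulation (51.9 ± 10.9) and 132, 125 and 124 CPM after it (127 ± 4.46). Its KO libraries had 34.0, 41.4 and 33.8 CPM before (36.4 ± 4.35) and 91.1, 102 and 108 CPM after (100.2 ± 8.40). The times did not overlap in either genotype. The log2 fold change of Igtp was 1.29 in WT (SE 0.14, edgeR adjusted p = 2.01e-06) and 1.46 in KO (SE 0.14, edgeR adjusted p = 6.14e-07).

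Irgm2 was the member that passed the edgeR test in neither genotype. It stood at 22.6, 26.4 and 25.4 CPM in WT 0 hr (24.8 ± 1.99) and at 21.7, 18.8 and 21.8 CPM in WT 48 hr (20.7 ± 1.71). In KO libraries it stood at 16.4, 16.3 and 19.0 CPM before stimulation (17.2 ± 1.52) and at 20.9, 19.3 and 21.1 CPM after it (20.4 ± 0.978). The stimulated WT libraries were all below the unstimulated ones (44.9% of genes had 3 WT libraries at 48 hr all below the 3 at 0 hr, and 34.9% all above), and the stimulated KO libraries were all above the unstimulated ones (39.5% all below and 33% all above). The log2 fold change of Irgm2 was -0.26 in WT (95% interval -0.53 to 0.01, edgeR adjusted p = 0.0791) and 0.24 in KO (-0.03 to 0.52, edgeR adjusted p = 0.0967). DESeq2 called it higher in KO (0.29, adjusted p = 0.0205). In WT edgeR called it lower with a filter of at least 1 CPM in 3 libraries (-0.41, adjusted p = 0.00642) and in the fit of the WT libraries alone (-0.29, 0.0484).

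Among the GKS effectors, Tgtp1 and Tgtp2 rose in both genotypes. Tgtp1 held 57.2, 72.9 and 58.0 CPM in WT 0 hr (62.7 ± 8.84) and 168, 159 and 158 CPM in WT 48 hr (162 ± 5.55). In KO libraries Tgtp1 was at 17.2, 24.5 and 29.3 CPM before stimulation (23.6 ± 6.11) and at 99.2, 121 and 101 CPM after it (107 ± 11.8). Stimulated libraries of both genotypes were all above the unstimulated ones. Its log2 fold change was 1.37 in WT (SE 0.17, edgeR adjusted p = 6.18e-06) and 2.18 in KO (SE 0.17, edgeR adjusted p = 7.01e-08).

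The copy Tgtp2 held 48.3, 63.5 and 41.6 CPM in WT 0 hr (51.1 ± 11.2) and 83.1, 93.3 and 85.2 CPM in WT 48 hr (87.2 ± 5.39). It held 15.0, 16.2 and 19.8 CPM in KO 0 hr (17.0 ± 2.48) and 52.8, 65.3 and 59.0 CPM in KO 48 hr (59.1 ± 6.27). The times did not overlap in either genotype for this copy either. The log2 fold change of Tgtp2 was 0.77 in WT (SE 0.16, edgeR adjusted p = 0.000537) and 1.79 in KO (SE 0.16, edgeR adjusted p = 2.42e-07). With reads of both copies added, the log2 fold change of the sum was 1.12 in WT (SE 0.15, edgeR adjusted p = 1.81e-05) and 2.02 in KO (SE 0.16, edgeR adjusted p = 5.65e-08).

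Iigp1 lies apart from the others on chromosome 18 (60376027 to 60392634, plus strand) and was scarce, with 41 to 378 estimated counts per library. It stood at 5.88, 5.97 and 4.52 CPM in WT 0 hr (5.45 ± 0.815) and at 9.73, 7.75 and 8.90 CPM in WT 48 hr (8.80 ± 0.995), without overlap. In KO libraries it stood at 1.12, 1.16 and 0.853 CPM before stimulation (1.04 ± 0.165) and at 1.38, 1.37 and 1.06 CPM after it (1.27 ± 0.180), where the times overlapped. Iigp1 rose in WT by a log2 fold change of 0.69 (SE 0.22, edgeR adjusted p = 0.0117), and this call ended without WT 0 hr replicate 3 (0.57, edgeR adjusted p = 0.0598). In KO its log2 fold change was 0.29 (95% interval -0.22 to 0.79, edgeR adjusted p = 0.284).

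Scaling matters for these changes over time. Upper-quartile scaling moved the median log2 fold change of all genes by -0.67 in WT and by -0.63 in KO, and lowered the share of called genes that were higher from 44.6% to 27.6% in WT and from 46.7% to 28.8% in KO. Under it Irgm1, Igtp and Tgtp1 were still called higher in both genotypes, Iigp1 in WT was at 0.02 (edgeR adjusted p = 0.951), Tgtp2 in WT at 0.10 (edgeR adjusted p = 0.507), and Irgm2 was called lower in both WT (-0.93, edgeR adjusted p = 7.23e-06) and KO (-0.39, edgeR adjusted p = 0.00858).

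Markers of other cell types moved with time as well. The 9 macrophage and monocyte markers summed to 143 to 289 CPM in WT 0 hr, 159 to 437 CPM in KO 0 hr, 18.2 to 21.1 CPM in WT 48 hr and 23.4 to 43.3 CPM in KO 48 hr, and all 9 fell in both genotypes. Of all tested genes, 40.9% were called lower in WT and 37.7% in KO. Over both genotypes the 9 T cell markers summed to 16.9 to 39.6 CPM before stimulation and 3.81 to 5.88 CPM after it. Dendritic cell markers summed to 56.5 to 100.2 CPM before stimulation and 134 to 189 CPM after it, a sum led by Flt3 and Bst2, which rose in both genotypes. The other markers of that list that passed, 4 of the 7 (Itgax, Clec9a, Xcr1 and Siglech), fell in both, with a list median of -2.87 in WT and -2.10 in KO on the log2 scale, and the defining Clec9a was at 0 in KO 48 hr. Neutrophil markers were at no more than 0.950 CPM in sum at 48 hr, and Ly6g, Camp and Mpo were at 0 in WT 48 hr. The part of these cells in the changes of the 6 genes was not tested.

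**Figure D2:**
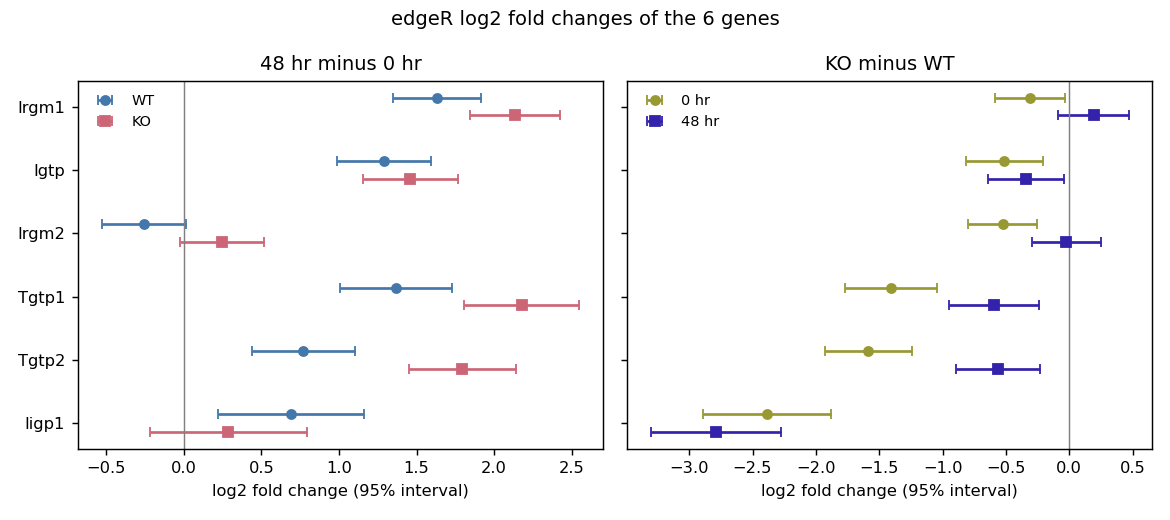
Log2 fold changes of the 6 genes from edgeR with 95% intervals, for 48 hr against 0 hr in each genotype (left) and KO against WT at each time (right). On the left Irgm1, Igtp, Tgtp1 and Tgtp2 lie above 0 in both genotypes. On the right Iigp1 lies farthest below 0 at both times, Tgtp1 and Tgtp2 lie nearer to 0 at 48 hr than at 0 hr, and Irgm1 at 48 hr has an interval that includes 0.

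The second comparison, KO against WT before stimulation, asks what unstimulated cells labelled KO express. All 6 genes had their 3 KO libraries below their 3 WT libraries, a pattern found in 7.92% of all tested genes. Of the 5 genes with a test, Tgtp1 and Tgtp2 passed it, both lower in KO (0.429% of the tested genes were called lower, 0.68% higher and 1.11% either way). Irgm1, Irgm2 and Igtp did not pass by edgeR, while DESeq2 also called Irgm2 (adjusted p = 0.000339) and Igtp (0.0295) lower. This contrast chose the family, so nothing is read from the count. The median log2 fold change was -0.97 over the 6 genes and -0.53 over the 5 without Iigp1, beside -0.001 over all tested genes.

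Tgtp1 fell from 62.7 ± 8.84 CPM in WT to 23.6 ± 6.11 CPM in KO, a log2 fold change of -1.41 (SE 0.17, edgeR adjusted p = 0.000718). Tgtp2 fell from 51.1 ± 11.2 to 17.0 ± 2.48 CPM, a log2 fold change of -1.59 (SE 0.16, edgeR adjusted p = 0.000131). Reads of both copies together were at 105, 136 and 99.6 CPM in WT and 32.2, 40.7 and 49.1 CPM in KO, a log2 fold change of -1.49 (SE 0.16, edgeR adjusted p = 0.00019). Both copies were called lower in each of the 21 alternative analyses, with edgeR, DESeq2 or limma adjusted p up to 0.0307 for Tgtp1 and 0.00853 for Tgtp2.

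In the GMS class the values at 0 hr were smaller. The log2 fold change of Irgm1 was -0.31 (95% interval -0.59 to -0.03, edgeR adjusted p = 0.382), from 104 ± 18.2 to 84.0 ± 8.17 CPM. For Irgm2 it was -0.53 (-0.80 to -0.25, edgeR adjusted p = 0.071), from 24.8 ± 1.99 to 17.2 ± 1.52 CPM, and for Igtp -0.51 (-0.81 to -0.21, edgeR adjusted p = 0.122), from 51.9 ± 10.9 to 36.4 ± 4.35 CPM. The intervals hold only for single genes, whereas the adjusted p covers 19125 tests. Without KO 0 hr replicate 6 and KO 48 hr replicate 12, the libraries nearer to WT, Irgm2 was called lower too (-0.60, edgeR adjusted p = 0.034), which made 3 of 5. These libraries were picked for lying nearer to WT, so leaving them out favours more calls by the choice itself, here and below. Irgm2 was called in 5 of 21 alternatives in all, among them edgeR without KO 0 hr replicate 6 alone (-0.60, adjusted p = 0.0436), and Igtp in 1, DESeq2.

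Iigp1, the gene that chose the family, was at 0.853 to 1.16 CPM in KO and at 4.52 to 5.97 CPM in WT. Its log2 fold change of -2.39 (95% interval -2.89 to -1.88) stayed between -2.51 and -2.26 in the 21 alternatives. Its main transcript, uc008fac.2, had 279, 218 and 195 estimated counts in WT and 35, 59 and 51 in KO.

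The third comparison, KO against WT after 48 hr, asks the same of stimulated cells. None of the 5 tested genes passed (0.544% of genes were called lower and 2.02% either way): 3 of the 5 had an unadjusted edgeR p below 0.05, DESeq2 called 2 of them, and limma-voom called 0. Iigp1, Tgtp1, Tgtp2 and Igtp had all KO libraries below all WT libraries (9.53% of genes), Irgm1 had them all above (10.7% of genes), and Irgm2 overlapped. This contrast chose the family too, so nothing is read from these counts. The median log2 fold change was -0.45 over the 6 genes and -0.34 over the 5 without Iigp1, beside 0.007 over all tested genes.

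Tgtp1 stood at 162 ± 5.55 CPM in WT and 107 ± 11.8 CPM in KO (log2 fold change -0.59, 95% interval -0.95 to -0.24, edgeR adjusted p = 0.0918). Tgtp2 stood at 87.2 ± 5.39 and 59.1 ± 6.27 CPM (-0.56, -0.90 to -0.23, edgeR adjusted p = 0.0893), and the sum of both copies differed by -0.58 (-0.91 to -0.26, edgeR adjusted p = 0.0714). These 2 copies are on the border of the threshold: DESeq2 called both lower (adjusted p = 0.00931 for Tgtp1 and 0.00942 for Tgtp2), and so did edgeR fitted to the 6 libraries at 48 hr alone (0.0115 and 0.0212). Without KO 0 hr replicate 4, edgeR called Tgtp1 lower (-0.59, adjusted p = 0.0271), which made 1 of 5.

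The GMS genes had smaller values of mixed sign at 48 hr. The log2 fold change of Irgm1 was 0.19 (95% interval -0.08 to 0.47, edgeR adjusted p = 0.563), with KO libraries at 344 to 414 CPM and WT libraries at 318 to 331 CPM. Igtp had KO libraries at 91.1 to 108 CPM and WT libraries at 124 to 132 CPM (-0.34, -0.64 to -0.04, edgeR adjusted p = 0.268). Irgm2 had nearly equal means of 20.4 and 20.7 CPM (-0.02, -0.30 to 0.25, edgeR adjusted p = 0.969).

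Iigp1 was at 1.06 to 1.38 CPM in KO and 7.75 to 9.73 CPM in WT at 48 hr, a log2 fold change of -2.79 (95% interval -3.30 to -2.27; -2.91 to -2.67 in the 21 alternatives). The KO 48 hr libraries, at most 1.38 CPM, thus stayed below the unstimulated WT libraries, at least 4.52 CPM. The main transcript uc008fac.2 had 317, 233 and 234 estimated counts in WT and 55, 29 and 40 in KO. A second transcript, uc033hhg.1, had 48, 50 and 88 in WT and 0, 18 and 0 in KO.

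At 0 hr, 0 of 41 measured markers of T, NK, myeloid, dendritic and red cells were called between the genotypes by edgeR (by unadjusted p it was 1, by DESeq2 1 and by limma-voom 0). Of all tested genes, 1.11% were called at 0 hr and 2.02% at 48 hr. The summed levels of these markers at 0 hr overlapped, with macrophage markers at 143 to 289 CPM in WT and 159 to 437 CPM in KO, NK markers at 11.4 to 15.2 and 14.4 to 25.9 CPM, neutrophil markers at 19.1 to 42.1 and 0.147 to 96.5 CPM, and red cell markers at 596 to 880 and 278 to 3366 CPM. Most single values leaned higher in KO at 0 hr. Positive were 8 of 9 macrophage, 7 of 9 T cell, 5 of 7 NK, 4 of 5 neutrophil and 4 of 4 red cell markers. Of the 7 dendritic cell markers 3 were positive and 4 negative. At 48 hr edgeR called 1 of the 41 (by unadjusted p it was 5, by DESeq2 2 and by limma-voom 0). It was the NK marker Prf1, higher in KO (4.58-fold, edgeR adjusted p = 0.0218). That call ended in 6 of 21 alternatives (limma-voom, and edgeR without replicate 7, 8, 9, 10 or 11, adjusted p up to 0.116). Of the 7 NK markers 5 were positive, Prf1 among them, and 2 negative, Ncr1 (-0.07) and Klrd1 (-0.03). The NK sums overlapped at 48 hr, at 3.53 to 3.97 CPM in WT and 3.37 to 11.6 CPM in KO. The 7 dendritic cell markers summed to 185 to 189 CPM in WT and 134 to 164 CPM in KO, a sum led by Flt3 and Bst2. EdgeR called 0 of these 7, with 5 negative, Flt3 (-0.59) and Bst2 (-0.19) among them, and 2 positive, Xcr1 (0.64) and Zbtb46 (0.53). The macrophage sums did not overlap at 48 hr, at 18.2 to 21.1 CPM in WT and 23.4 to 43.3 CPM in KO, and edgeR called 0 of those 9 markers (4 negative, 5 positive). The part of these cells in the genotype values of the 6 genes was not tested.

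The difference between the genotype effects at 48 hr and at 0 hr was tested as an interaction, and 0 of 5 genes passed (0.115% of genes called either way, 0.0471% lower). At an unadjusted edgeR p below 0.05 there were 4 of 5, and DESeq2 called 1 and limma-voom 0. The log2 values of the interaction, KO against WT at 48 hr minus the same at 0 hr, were 1.02 for Tgtp2 (SE 0.22, edgeR adjusted p = 0.117), 0.81 for Tgtp1 (SE 0.23, edgeR adjusted p = 0.286), 0.50 for Irgm1 (SE 0.18, edgeR adjusted p = 0.448), 0.50 for Irgm2 (SE 0.18, edgeR adjusted p = 0.436) and 0.17 for Igtp (SE 0.20, edgeR adjusted p = 0.867). For the sum of Tgtp1 and Tgtp2 it was 0.91 (95% interval 0.44 to 1.37, edgeR adjusted p = 0.176). Iigp1 had the opposite sign, -0.40 (SE 0.32), and is given without a test. The gene called by DESeq2 was Tgtp2 (0.97, adjusted p = 0.00963).

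The RNA counts of the 3 GKS genes relative to the 3 GMS genes can be read within each library, where no scaling between libraries enters. They are not corrected for transcript length. Gm12250, a further GKS effector described below, is not in this ratio, so it is not a balance of all effectors to regulators. Counts of the 3 GKS genes divided by counts of the 3 GMS genes gave 0.679, 0.659 and 0.639 in WT 0 hr and 0.266, 0.282 and 0.359 in KO 0 hr. At 48 hr the ratio was 0.554, 0.559 and 0.529 in WT and 0.332, 0.350 and 0.342 in KO. All 6 KO libraries were below all 6 WT libraries, and KO 0 hr replicate 6 had the highest ratio of the KO libraries. Iigp1 made up 1.67% to 2.14% of the counts of the 6 genes in WT 0 hr, 0.451% to 0.706% in KO 0 hr, 1.07% to 1.33% in WT 48 hr and 0.168% to 0.224% in KO 48 hr. The ratio includes the gene that chose the family and is given without a test.

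**Figure D3:**
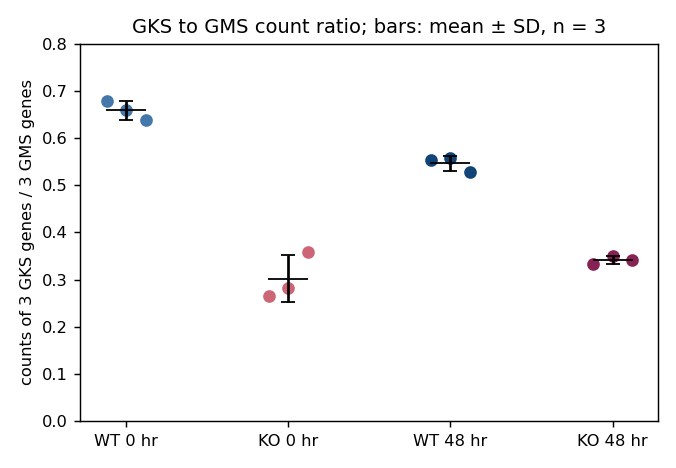
Ratio of the summed estimated counts of the 3 GKS genes (Iigp1, Tgtp1, Tgtp2) to those of the 3 GMS genes (Irgm1, Irgm2, Igtp) in each library, on a linear axis from 0, with bars for the mean ± SD (n = 3). Group means are 0.659 ± 0.0203 in WT 0 hr, 0.302 ± 0.0498 in KO 0 hr, 0.547 ± 0.0159 in WT 48 hr and 0.341 ± 0.00911 in KO 48 hr, and no KO library reaches a WT library.

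The 6 genes fell into different courses over the 12 libraries. On log2(CPM + 0.5), Pearson's r was 0.974 between Tgtp1 and Tgtp2, which share reads, 0.955 between Irgm1 and Igtp, and 0.947 between Tgtp1 and Igtp. Iigp1 followed Tgtp2 (r = 0.691) and Tgtp1 (0.599) more closely than Irgm2 (0.566), Igtp (0.457) or Irgm1 (0.207). Irgm2 had an r of 0.574 with Tgtp2, 0.453 with Tgtp1, 0.214 with Igtp and 0.096 with Irgm1. These values describe 12 libraries that form 4 groups and share their scaling, and carry no test.

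By the same measure the 5 genes outside the family most like Iigp1, of 13458 with a mean of at least 1 CPM, were Xist (r = 0.908), Kdm6a (0.906), Tsix (0.904), Slfn1 (0.904) and Sat2 (0.902). Xist and Tsix are the RNAs of the X-inactivation centre, and Kdm6a is an X-linked histone demethylase known to escape X inactivation. Slfn1, of the Schlafen family, stood at 4.00 CPM in WT 0 hr, 1.27 in KO 0 hr, 9.63 in WT 48 hr and 2.08 in KO 48 hr. Sat2 stood at 1.90, 0.885, 4.36 and 1.11 CPM in the same groups. Since Iigp1 was chosen for being lower in KO, genes with a strong genotype difference lead this list, and sex cannot be told apart from genotype.

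Single transcripts of Irgm2 differed more between genotypes than the gene as a whole. The transcript uc007jat.2 had 0 estimated counts in all 6 WT libraries, 189, 37 and 202 in KO 0 hr and 168, 134 and 423 in KO 48 hr. It made up 3.5% to 21.9% of Irgm2 counts in KO 0 hr and 18.3% to 52.1% in KO 48 hr. Against a floor of 3 counts over the WT group, the CPM assigned to it was at least 126-fold higher in KO at 0 hr and at least 237-fold higher at 48 hr. Without KO 48 hr replicate 12, which held most of the counts, the limit at 48 hr was 147, and without any 1 WT library, which raises the floor, it was down to 82.6 at 0 hr and 157 at 48 hr. This floor allows for counting error alone, because PCR copies of a molecule were counted as separate reads.

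This transcript was singled out after its values were seen. With 36629 transcripts tested as separate features it was called higher in KO at 48 hr (edgeR adjusted p = 0.0476) and missed the threshold at 0 hr (0.0708), and its fitted fold change is not given because it depends on the prior count. Of 63759 transcripts, 9 were at 0 in all WT libraries with at least 1 count in all KO libraries, 3 of them with at least 30 counts in all KO libraries (in Irgm2, M25573 and Stk38l), and 0 showed the reverse with at least 30 counts in all WT libraries. Both KO libraries that lay nearer to WT carried it, with 202 counts in KO 0 hr replicate 6 and 423 in KO 48 hr replicate 12.

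The main Irgm2 transcript, uc007jav.2, had 862, 1095 and 1044 counts in WT 0 hr, 559, 899 and 913 in KO 0 hr, 717, 612 and 718 in WT 48 hr and 491, 443 and 169 in KO 48 hr. The transcript uc007jau.2 had 424, 240 and 404 counts in WT 0 hr and 125, 83 and 133 in WT 48 hr, and 115, 122 and 176 in KO 0 hr and 189, 154 and 220 in KO 48 hr. In the same fit of transcripts uc007jau.2 fell with time in WT (log2 fold change -1.08, edgeR adjusted p = 0.0053) and rose with time in KO (1.12, edgeR adjusted p = 0.00453), and its interaction did not pass (2.21, SE 0.37, edgeR adjusted p = 0.157). The deposited transcript names were not matched to annotated coordinates, and the counts are shares of reads that Salmon assigned among overlapping transcripts.

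**Figure D4:**
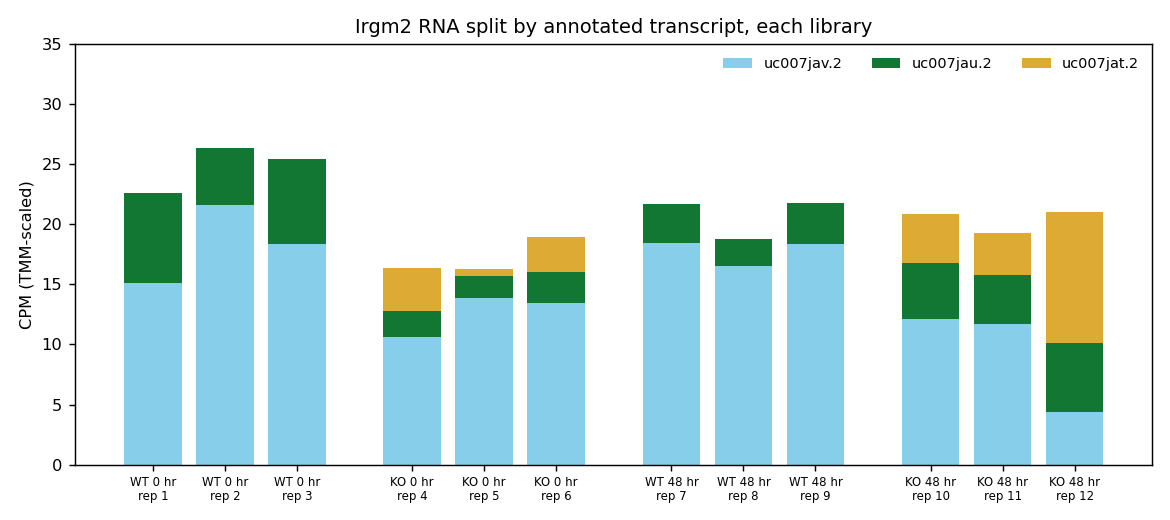
CPM of Irgm2 in each of the 12 libraries, stacked by its 3 transcripts with counts, on a linear axis from 0. The transcript uc007jat.2 is absent from the 6 WT bars and present in the 6 KO bars, where it takes 3.5% to 52.1% of the gene.

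Of 20 names listed as further IRG genes, 11 were measured. Over time in WT 2 rose and 7 fell, and over time in KO 2 rose and 7 fell, with a median log2 fold change of -1.11 in WT and -1.30 in KO. Of all tested genes, 33% were called higher and 40.9% lower in WT, and 33% higher and 37.7% lower in KO. In WT Gm4841 fell by 4.11 on the log2 scale (edgeR adjusted p = 1.06e-08), Irgc1 by 2.67 (0.00102), 9930111J21Rik1 by 2.49 (6.19e-08) and F830016B08Rik by 2.06 (6.55e-06). Gm12250, known as Irgb10 and a GKS effector that works with GBP proteins, is typed as a processed pseudogene in the GENCODE M21 annotation. It rose in WT (2.04, edgeR adjusted p = 3.27e-07) and in KO (1.85, edgeR adjusted p = 9.78e-07).

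Between genotypes, 1 of the 11 was called lower at 0 hr (0.429% of all tested genes) and 1 at 48 hr (0.544% of all tested genes). At 48 hr it was Gm12250, at 86.5, 87.2 and 88.0 CPM in WT and 43.2, 36.1 and 54.0 CPM in KO (log2 fold change -0.97, SE 0.18, edgeR adjusted p = 0.0164). Leaving out any 1 of replicates 7, 8, 10 and 11 ended this call (edgeR adjusted p up to 0.0768). At 0 hr Gm12250 was at -0.78 (edgeR adjusted p = 0.0681), with all KO libraries below all WT libraries. The gene called at 0 hr was Gm18853, annotated as a pseudogene on chromosome 7 (-1.12, SE 0.21, edgeR adjusted p = 0.0194), whose place in the family was not checked. That call ended in 6 of 21 alternatives. Without both KO libraries nearer to WT, 2 of the 11 were called at 0 hr and 3 at 48 hr.

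The interferon gamma pathway upstream of the family was read from 14 genes. At 0 hr 2 were lower and 0 higher in KO, with a median log2 fold change of -0.20, and at 48 hr 2 were lower and 0 higher, with a median of -0.12. Of all tested genes, 0.429% were called lower and 0.68% higher at 0 hr, and 0.544% lower and 2.02% either way at 48 hr. Irf1, the factor of the GAAA repeat, was lower in KO at both times. It fell from 222 ± 17.3 to 156 ± 18.6 CPM at 0 hr (log2 fold change -0.51, SE 0.11, edgeR adjusted p = 0.0441) and from 146 ± 8.40 to 95.9 ± 6.39 CPM at 48 hr (-0.61, SE 0.11, edgeR adjusted p = 0.0134). The call at 0 hr ended in 12 of 21 alternatives, in 10 of which 1 library was left out, and the call at 48 hr ended when replicate 7, 10 or 11 was left out. Nlrc5, a transactivator of MHC class I genes, fell at 0 hr (-1.13, SE 0.19, edgeR adjusted p = 0.00883) and was called in all 21 alternatives. The receptor chain Ifngr2 fell at 48 hr (-0.46, SE 0.10, edgeR adjusted p = 0.0348), a call that ended in 7 of 21 alternatives.

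By edgeR the other genes of the pathway did not pass between genotypes. The nearest was Socs3, a feedback inhibitor of cytokine receptors, with all KO libraries below all WT libraries at 0 hr (-1.19, SE 0.27, edgeR adjusted p = 0.05003) and a call in 9 of 21 alternatives, DESeq2 among them (adjusted p = 0.000715). At 48 hr it was at -0.54 (edgeR adjusted p = 0.363). Ifngr1, the ligand-binding receptor chain, had log2 fold changes of 0.06 at 0 hr and 0.02 at 48 hr, and the kinase genes Jak1 and Jak2 had -0.20 and -0.40 at 0 hr and 0.02 and -0.18 at 48 hr. Irf8, a factor of B and myeloid cells, was at -0.21 and -0.13, and Socs1, a feedback inhibitor of JAK kinases, at -0.57 and -0.52. Ifng itself was at no more than 0.632 CPM in any library. Over time in WT 7 of the 14 rose and 4 fell. Those that rose included Socs1 (3.21, edgeR adjusted p = 5.41e-08), Ifng (3.00, 0.0094), Socs3 (1.95, 1.92e-05) and Ptpn2 (1.55, 2.5e-08). Those that fell included Ifngr1 (-0.97, edgeR adjusted p = 0.000134), Irf1 (-0.60, 0.000246) and Jak1 (-0.41, 0.0216). In KO 7 rose and 3 fell (of all tested genes, 33% rose and 40.9% fell in WT, and 33% rose and 37.7% fell in KO). Ifngr1 (-1.01, edgeR adjusted p = 9.98e-05) and Irf1 (-0.70, 6.97e-05) fell in KO too. Without both KO libraries nearer to WT, 3 of the 14 were called between genotypes at 0 hr and 4 at 48 hr.

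**Figure D5:**
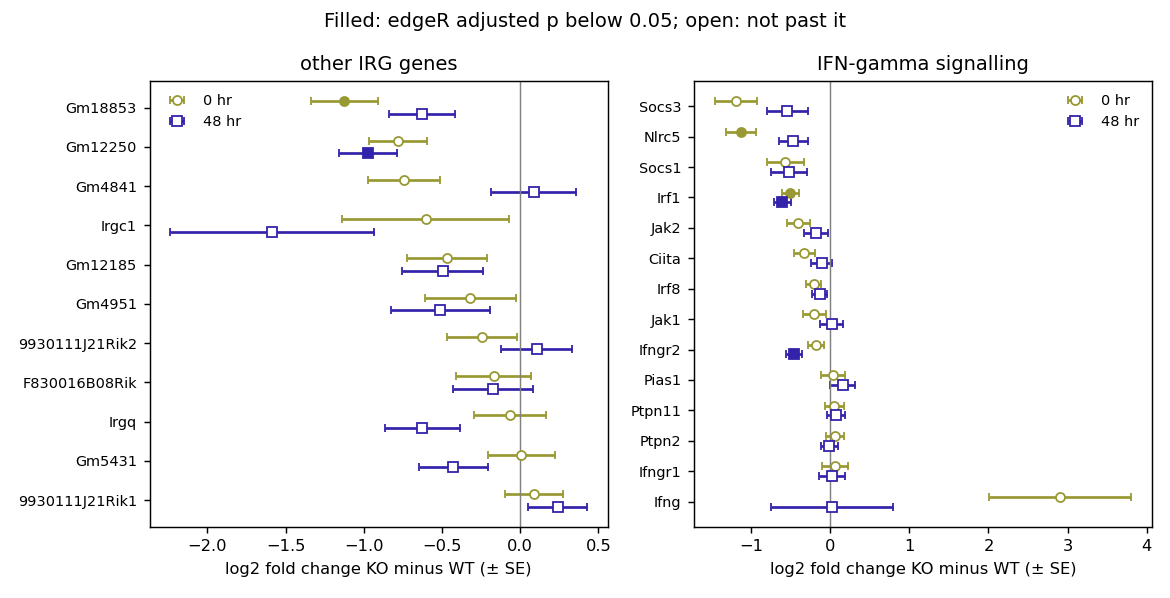
Log2 fold changes of KO against WT, with standard errors, for the 11 measured further IRG genes (left) and 14 genes of interferon gamma signalling (right) at 0 hr and 48 hr. Filled symbols, edgeR adjusted p below 0.05, are Gm18853, Nlrc5 and Irf1 at 0 hr and Gm12250, Irf1 and Ifngr2 at 48 hr, all below 0.

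Of 8 measured genes of type I interferon signalling, 1 was lower in KO at 0 hr (0.429% of all tested genes were). It was Irf9, a DNA-binding factor of that pathway (log2 fold change -0.62, SE 0.10, edgeR adjusted p = 0.00761), and the call ended in the fit of the 6 libraries at 0 hr (0.0766). At 48 hr edgeR called 0 of the 8, beside 2.02% of all tested genes (by unadjusted p it was 1, by DESeq2 0 and by limma-voom 0), and Irf9 was at -0.07. Over time 2 rose and 1 fell in WT, with Usp18, which limits type I interferon signalling, at 2.78 (edgeR adjusted p = 5.42e-10) and Irf7 at 1.20 (7.49e-05). In KO 3 rose and 1 fell (of all tested genes, 33% rose and 40.9% fell in WT, and 33% rose and 37.7% fell in KO). Without both KO libraries nearer to WT, 1 of the 8 was called at each time between genotypes.

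The guanylate-binding proteins (GBP), a neighbouring family of interferon-induced GTPases that act on the same vacuoles, had 10 measured genes. Over time 7 rose in WT and none fell (33% of all tested genes rose and 40.9% fell). In KO 6 rose and 2 fell (33% of all tested genes rose and 37.7% fell). At 0 hr 0.429% of all tested genes were called lower in KO and 0.68% higher. Of the 10, 1 was lower, Gbp6 (log2 fold change -1.37, SE 0.20, edgeR adjusted p = 0.00422), and 1 was higher, Gbp2b (2.71, SE 0.41, edgeR adjusted p = 0.00478). Both calls ended in the fit of the 6 libraries at 0 hr (0.0636 and 0.0999). At 48 hr 6 of 10 were lower, with Gbp2b at -2.12 (edgeR adjusted p = 0.00496), Gbp2 at -1.50 (4.24e-05), Gbp6 at -1.31 (0.00403) and Gbp7 at -1.01 (0.0043), and all 10 had their KO libraries below their WT libraries. Of all tested genes, 0.544% were called lower and 9.53% had all KO libraries below all WT libraries. Gbp5, another of the 6 (edgeR adjusted p = 0.0188), lost its call without replicate 7, 8 or 11 (up to 0.0756). The median log2 fold change of the GBP genes was -0.36 at 0 hr and -1.001 at 48 hr. That of the 5 IRG genes other than Iigp1 was -0.53 at 0 hr and -0.34 at 48 hr, and the difference between the families was not tested. The interaction was called for 2 GBP genes, both negative (0.0471% of all tested genes), Gbp2b (-4.83, edgeR adjusted p = 0.00273) and Gbp2 (-1.26, edgeR adjusted p = 0.0276), and the call of Gbp2 ended in 7 of 20 alternatives. Without both KO libraries nearer to WT, 3 of the 10 were called between genotypes at 0 hr and 7 at 48 hr.

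The machinery with which IRG proteins act at vacuoles, the enzymes that attach ATG8 proteins to membranes and the ubiquitin ligases and adaptors there, was read from 15 genes. None was called between genotypes at 0 hr (by unadjusted p it was 1, by DESeq2 and limma-voom 0) or at 48 hr (by unadjusted p 3, by DESeq2 and limma-voom 0). Of all tested genes, 1.11% were called at 0 hr and 2.02% at 48 hr. Without KO 0 hr replicate 6 and KO 48 hr replicate 12, 1 of the 15 was called at 48 hr. Over time 8 rose and 1 fell in WT (33% of all tested genes rose and 40.9% fell). In KO 9 rose and 1 fell (33% of all tested genes rose and 37.7% fell). In WT Gabarapl1, an ATG8 protein, rose by 1.58 (edgeR adjusted p = 1.23e-05), Atg5 by 1.52 (4.48e-08), Atg10 by 1.17 (3.93e-05), and Map1lc3a, another ATG8 protein, fell by 2.11 (3.49e-05).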

How the data were processed

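RNA was measured by RNA-seq in 12 libraries of mouse splenic B cells, from 2 ng of RNA amplified with a SMART-Seq kit, which does not mark strand, per the labels' protocols. The deposited table holds an estimated count per transcript and library, a whole number, made by the authors with Salmon 0.8.2 per the submitters' processing notes, which also name bcl2fastq 2.20.0.422, Trimmomatic 0.36, DESeq2 1.14.1 and the mm10 build. Salmon shares reads among similar transcripts, so near-identical genes are uncertain.

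Here the counts were summed per gene symbol after trailing spaces were removed from 344 names. Genes were filtered with filterByExpr, scaled by TMM (factors 0.723 to 1.42) and fitted in edgeR 4.0.16 under R 4.3.3 (robust quasi-likelihood F test) with all 12 libraries in 4 groups, no covariate and 8 residual degrees of freedom. Benjamini-Hochberg adjustment covered 19125 genes. Columns outside the 12 libraries numbered 0. Depth (39 M to 53.2 M counts) limits precision for Iigp1.

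Alternatives were DESeq2 1.42.0, limma-voom (limma 3.58.1), relative log expression and upper-quartile scaling, a filter of at least 1 CPM in 3 libraries, no filter on low counts, only the libraries of the contrast, Tgtp1 and Tgtp2 summed, and leaving out each library. Transcripts as features, and leaving out both KO libraries nearer to WT, were added after the data were seen. The second of these drops the KO libraries most like WT, so a rise in genotype calls under it is partly built in. The code was tested on simulated data.

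The members and lists were chosen with earlier results of these data known. The genes named are the 6 members, 9 interferon pathway genes, up to 4 called genes per list and comparison with the largest change, the 5 genes most correlated with Iigp1, and Chd4, Xist and Ddx3y. Of the interferon gamma list 1 gene is not reported here and was left out of its counts. Marker genes, Gm12185, single transcripts, M25573, Stk38l, Gbp5 and Socs3 at 0 hr fall outside that rule and were named after their values were seen. Sequences were read from RefSeq windows with biopython 1.88, and figures were drawn with matplotlib 3.10.9.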

Additional observations from a re-analysis of the deposited data

Results flagged for a closer look

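The genotype effect differed between the times, by a test of the difference itself, in 2 genes of the GBP family. The interaction (KO against WT at 48 hr minus the same at 0 hr, log2) was -4.83 for Gbp2b (edgeR adjusted p = 0.00273), which was higher in KO at 0 hr and lower in KO at 48 hr. It was -1.26 for Gbp2 (edgeR adjusted p = 0.0276), a call that ended in 7 of 20 alternatives, in each of which 1 library was left out (edgeR adjusted p up to 0.128). None of the 5 tested IRG genes was called in the interaction by edgeR (by unadjusted p it was 4, by DESeq2 1 and by limma-voom 0).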

How the results depend on the processing

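No paired analysis was possible because the groups share no replicate numbers. Over time the counts of IRG genes called in either direction stayed within 4 to 6 (WT) and 3 to 5 (KO). They are not counts of genes that rose, since under upper-quartile scaling they include Irgm2 called lower in both genotypes. Where Tgtp1 and Tgtp2 were summed, the pair counts as a single gene. Of the single values, 3 changed sign: under upper-quartile scaling Iigp1 (-0.34) and Irgm2 (-0.39) over time in KO, and without WT 0 hr replicate 2 the interaction of Igtp (-0.015, and up to 0.28 without another library). The causes were not tested.

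DESeq2 called 4 of 5 IRG genes at 0 hr, 2 at 48 hr and 1 in the interaction, against 2, 0 and 0 by edgeR. Fitting only the libraries of the contrast called 2 at 48 hr. Leaving out 1 library gave 2 to 3 at 0 hr, 0 to 1 at 48 hr and 0 in the interaction.

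Counts over all genes moved more, and leaving out both KO libraries nearer to WT favours more calls by how they were picked. The 212 genes called at 0 hr became 645 by DESeq2, 75 in the fit of the contrast's libraries, 674 without both KO libraries nearer to WT, and 79 to 426 without 1 library. The 386 at 48 hr became 1069 by DESeq2, 193 by limma-voom, 1351 without both KO libraries, and 136 to 1080 without 1 library. The 22 in the interaction became 220, 136 without both KO libraries, and 3 to 90 without 1 library. At 48 hr the share of called genes that were higher was 73.1% under TMM and 63.8% under relative log expression scaling. Low counts limit Iigp1 and its transcripts.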
